A study of Mus musculus with 6 samples.

Results

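The expression of 10 genes of prostaglandin and leukotriene metabolism was followed in mouse cultures treated with metformin: Ptgr1, Ptgr2, Ptgs1, Ptgs2, Hpgds, Ptges, Alox5, Alox5ap, Ltc4s and Lta4h. They were taken as a named list around Ptgr2, by gene name and not by a threshold on their values, and all 10 were found by Ensembl identifier among the 55401 genes of the expression table. The 6 RNA-seq libraries came from C57BL/6 cells that the labels call female germline stem cells (FGSCs), a line beyond passage 20 grown on mitotically inactivated STO feeder cells in medium with serum, LIF, EGF, bFGF and GDNF. Control FGSCs (3 libraries) received no treatment, and metformin FGSCs (3 libraries) received 1 μM metformin for 24 h. The labels do not say that libraries of a group came from separate cultures, so that p-values measure the spread between these libraries, which may be technical.

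Eicosanoids are signalling lipids made from arachidonic acid, which phospholipases A2 release from membranes. In one branch the cyclooxygenases (Ptgs1 and Ptgs2) make prostaglandin H, which terminal synthases such as Hpgds and Ptges turn into individual prostaglandins. In the other, 5-lipoxygenase (Alox5), helped by its activating protein FLAP (Alox5ap), makes leukotriene A, which Lta4h or Ltc4s then converts, and the reductases Ptgr1 and Ptgr2 take part in breaking the products down. Prostaglandins made after induction of Ptgs2 are known in the ovary for their part in ovulation, and mast cells and other myeloid cells are a known source of leukotrienes.

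The labelled cell type was first set against marker lists. Of 6 germ cell markers, 0 reached a mean of 1 FPKM (fragments on a gene, scaled to exon length and to the depth of the library), and Pou5f1, Dppa3 and Dazl were listed at 0 in all 6 libraries. The summed level of the 6 germ cell markers was 0.48 to 1.38 FPKM in control FGSCs and 0.33 to 0.93 FPKM in metformin FGSCs. Ifitm3 was the highest of them, at a mean of 0.662 FPKM, with 1.32 FPKM in control library 1 as its highest value. Of 11 mast cell markers, 3 reached 1 FPKM (Kit, Cpa3 and Il1rl1), with the protease gene Cpa3 highest at a mean of 352 FPKM, while Fcer1a, Mcpt4, Tpsb2, Tpsab1 and Mrgprb1 were listed at 0. Macrophage markers reached 1 FPKM in 2 of 8 cases (Adgre1 highest at 58.3 FPKM, Mertk at 0) and platelet markers in 3 of 7 (Itga2b highest at 38.4 FPKM, Gp1bb at 0). Neutrophil, fibroblast and granulosa markers reached it in 0 of 8, 0 of 8 and 0 of 6 cases, with Camp at 0.127 FPKM, Dcn at 0.27 FPKM and Amh at 0.662 FPKM as their highest members. Listed at 0 throughout were Elane, Ltf, Ly6g and S100a9 of the neutrophil list, Lum of the fibroblast list, and Fshr, Foxl2, Cyp19a1, Inha and Inhbb of the granulosa list. These RNA-seq libraries thus showed little or no transcript of the germ cell markers listed. The study characterised its line as germ cells by RT-PCR and immunofluorescence, which were not analysed here, and the cultures are called FGSCs below as labelled.

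The 10 genes covered a wide range of levels, and 6 of them passed the minimum mean of 1 FPKM set for testing (Alox5ap, Lta4h, Ptgs1, Ptgr1, Ptgr2 and Ltc4s). None of these 6 differed between metformin and control FGSCs at an adjusted p under 0.05 (limma, Benjamini-Hochberg over 10661 genes), where 0.0281% of all tested genes did, and 0 of the 6 had an unadjusted p under 0.05, against 10.8% of all tested genes. By mean FPKM, FLAP, the leukotriene A hydrolase and cyclooxygenase-1 were the 3 highest of the 10, with overlapping ranges for cyclooxygenase-1 and Ptgr1. Cyclooxygenase-2, Hpgds, Ptges and 5-lipoxygenase stayed under 1 FPKM in every library. Libraries held an estimated 13400000 to 14000000 fragments, which puts 1 fragment on 1 kb at 0.0713 to 0.0746 FPKM.

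**Figure D1:**
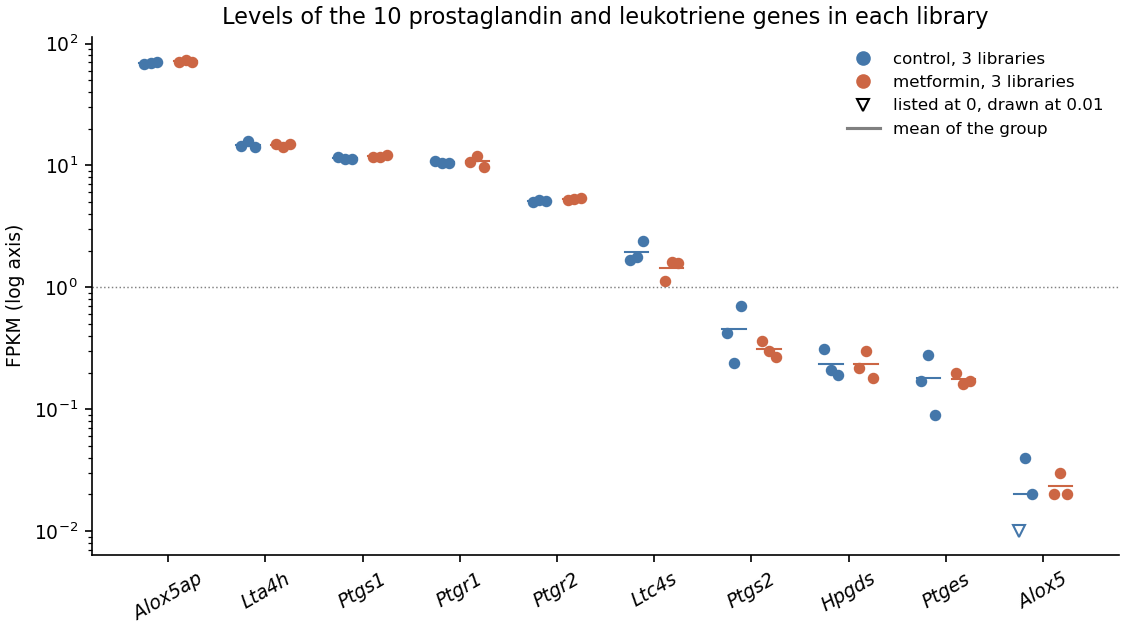
FPKM (log axis) of the 10 genes in the 3 control (blue) and 3 metformin (orange) libraries, with each group's mean as a short line, the minimum mean for testing of 1 FPKM as a dotted line, and a value listed at 0 as an open triangle. Levels fall from a mean of 70.3 FPKM for Alox5ap to 0.0217 FPKM for Alox5, and the 2 groups separate for Ptgr2 and Ltc4s only.

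In the order of levels, Alox5ap stood 4.76-fold above Lta4h, Lta4h 1.27-fold above Ptgs1, Ptgs1 1.09-fold above Ptgr1, Ptgr1 2.06-fold above Ptgr2 and Ptgr2 3.06-fold above Ltc4s, as ratios of the mean FPKM of 6 libraries. Ltc4s stood 4.45-fold above Ptgs2, Ptgs2 1.62-fold above Hpgds and Hpgds 1.32-fold above Ptges. Alox5 came last, and no ratio to it is given because it was not told from 0. Most neighbours had separate ranges over the 6 libraries. Those of Ptgs1 and Ptgr1, of Ptgs2 and Hpgds, and of Hpgds and Ptges overlapped, with the given order in 5 of 6 libraries for each pair, so that these neighbours were not told apart beyond their spread.

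Ptgr2 gives the list its centre. The gene (ENSMUSG00000072946) lies on the plus strand of chromosome 12 at chr12:84285232-84315832 in GRCm38, and its product reduces the keto metabolites of prostaglandins, among them that of prostaglandin E. The study designed ChIP-qPCR primers for its promoter, so the bases before its start are shown here beside those of Ptgr1, the other reductase of the list. Both stretches end short of the RefSeq start from which windows and distances are counted below. That of Ptgr2 ends directly before the gene start given above. For Ptgr1, RefSeq also has a start farther out, and its stretch ends directly before that one, short of the listed start. Both are from RefSeq (GRCm38.p6), at chr12:84285046-84285231 on the plus strand for Ptgr2 and at chr4:58987132-58987328 on the minus strand for Ptgr1. They are written 5′ to 3′, and capitals mark TGATGCAA, a word that joins parts of the C/EBP and ATF sites.
Ptgr2: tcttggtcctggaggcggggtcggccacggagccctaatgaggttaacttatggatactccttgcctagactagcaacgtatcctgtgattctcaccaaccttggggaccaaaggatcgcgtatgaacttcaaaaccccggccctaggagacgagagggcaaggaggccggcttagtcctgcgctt
Ptgr1: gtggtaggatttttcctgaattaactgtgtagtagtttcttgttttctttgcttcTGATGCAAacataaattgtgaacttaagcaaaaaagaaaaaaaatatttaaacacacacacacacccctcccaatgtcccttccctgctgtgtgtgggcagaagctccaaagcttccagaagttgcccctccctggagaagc

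The Ptgr2 stretch has 186 bases, 55.9% GC and 10 CpG dinucleotides, and the Ptgr1 stretch has 197 bases, 41.6% GC and 0 CpG dinucleotides. In windows of 250 bases before the RefSeq start, the Ptgr2 window held 14 CpG dinucleotides, more than 70.4% of 27025 such windows, and the Ptgr1 window held 5, more than 44.5% of them. Windows were found for 9 of the 10 genes, and Alox5ap is the one not in the table. Of the other 7, Ptgs2 and Lta4h had the most CpG dinucleotides with 13 and 11, and Ltc4s and Hpgds the fewest with 3 each.

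These 9 windows were searched on both strands for short words of known motifs. The GATA words were AGATAA with its variant AGATAG, and TGATAA with its variant TGATAG, which occur in 27.1% of all windows. TGATGCAA occurs in 0.818% of them, the antioxidant element TGACNNNGC in 10.1%, and the TATA words, TATAAA with its variant TATAAG, in 17.7%. The matches found did not overlap each other, and a match describes the letters and no binding. The Ptgr1 window (chr4:58987079-58987328) held TGATGCAA 195 bases before its RefSeq start and TATAAG 31 bases before that start. TATAAG is nearer to the start than the stretch printed above. That RefSeq start lies inside the span listed for Ptgr1 (chr4:58965439-58987119), so TATAAG falls within the listed gene. It also falls within the RefSeq gene as counted from its farther start. Alox5 held a GATA word on the opposite strand 117 bases before its start, and the windows of Ptgr2, Ptgs1, Ptgs2, Hpgds, Ptges, Ltc4s and Lta4h held none of these words. The reverse primer of the study's Ptgr2 pair, AAACCATACCTGCCTGCC, has its only exact match in NCBIM37 at chr12:85624157-85624174. This match is 2008 bases before the Ptgr2 start of that build and outside the window shown. The forward primer of the pair has 31529 exact matches in that build, 72 of them within 5 kb of the Ptgr2 start. The stretch that the pair amplifies was therefore not placed here.

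Control libraries 1 to 3 had 5.02, 5.17 and 5.10 FPKM of Ptgr2, and metformin libraries 1 to 3 had 5.25, 5.26 and 5.39 FPKM. All metformin libraries lay above all control libraries, by a small margin. Means were 5.10 ± 0.0751 and 5.30 ± 0.0781 FPKM (SD, n = 3 each), with the metformin mean 3.99% higher, a difference that did not pass the test. The log2 difference was 0.05 with a 95% interval of -0.05 to 0.14 (limma on log2(FPKM + 1), adjusted p = 0.708; exact two-sided permutation p = 0.1, the smallest that 3 against 3 libraries allow). Ptgr2 ranked 5448 of 10661 tested genes by the size of its difference. Groups lay apart with metformin higher in 8.89% of all tested genes, a pattern that Ptgr2 alone of the 6 tested genes showed. The study picked Ptgr2 for ChIP-qPCR partly by its expression in these same libraries, so that its direction here is not independent evidence. From 399 to 441 fragments per library stood behind these values, with a counting SD of 4.84% for a single library. The table also lists an unnamed antisense gene across its end, at a mean of 0.10 FPKM.

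Ptgr1 (ENSMUSG00000028378, chr4:58965439-58987119, minus strand) encodes a reductase that acts on leukotriene B and on keto prostaglandins. Its level was 10.92, 10.48 and 10.47 FPKM in control libraries 1 to 3 and 10.61, 12.06 and 9.69 FPKM in metformin libraries 1 to 3. The highest and the lowest value were both metformin libraries, so that the control range lay within the metformin range. Means were 10.6 ± 0.257 and 10.8 ± 1.20 FPKM (SD, n = 3 each), with a log2 difference of 0.02 (95% interval -0.15 to 0.18, limma adjusted p = 0.961, exact permutation p = 0.8). Without metformin library 2 the difference was -0.06. The ratio of Ptgr1 to Ptgr2 ran from 1.80 to 2.29 over the 6 libraries, and both of these ends were metformin libraries.

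The first step of both branches is the release of arachidonic acid, and the cytosolic phospholipase gene Pla2g4a, at a mean of 22.6 FPKM, was the highest of 18 phospholipase genes listed. It had 23.09, 24.15 and 23.96 FPKM in control libraries and 20.62, 22.50 and 20.99 FPKM in metformin libraries. Every metformin library lay below every control library, a difference of the means of -9.96%. The log2 difference was -0.15 (95% interval -0.24 to -0.05), with an unadjusted p of 0.00733 and an adjusted p of 0.346 in limma, so that Pla2g4a did not pass the test. Pla2g12a (18.95 ± 1.08 to 19.8 ± 0.507 FPKM, adjusted p = 0.652) and the lysosomal Pla2g15 (12.9 ± 0.472 to 13.9 ± 0.775 FPKM, adjusted p = 0.504) came next. Only 4 of the 18 phospholipase genes reached 1 FPKM, and 4 were listed at 0 in all libraries.

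Ptgs1 (ENSMUSG00000047250, chr2:36230426-36252272, plus strand) encodes cyclooxygenase-1, the form that most cells carry without induction. Control libraries had 11.68, 11.40 and 11.40 FPKM and metformin libraries 11.65, 11.76 and 12.14 FPKM. The groups overlapped in the lowest metformin and the highest control library alone. The means of 11.5 ± 0.162 and 11.8 ± 0.257 FPKM gave a log2 difference of 0.04 (95% interval -0.04 to 0.12, limma adjusted p = 0.694, exact permutation p = 0.2). Antisense to Ptgs1 an unnamed gene was at 0.198 FPKM.

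Ptgs2 (ENSMUSG00000032487, chr1:150100031-150108227, plus strand) encodes cyclooxygenase-2, the inducible form. It had 0.42, 0.24 and 0.70 FPKM in control libraries and 0.36, 0.30 and 0.27 FPKM in metformin libraries. The metformin values lay inside the control range, and control library 3 was the highest of all. Means were 0.453 ± 0.232 and 0.310 ± 0.0458 FPKM, a difference of -0.14 on the log2(FPKM + 1) scale (exact permutation p = 0.5), with 14 to 41 fragments per library. This difference was -0.35 with a pseudocount of 0.1, -0.26 after rescaling libraries to the same sum, -0.25 without control library 2 and -0.02 without control library 3. Ptgs1 exceeded Ptgs2 in each library, by 16.3-fold to 47.5-fold, so the cyclooxygenase message of these cultures was nearly all of the Ptgs1 form in both groups. Pla2g4a is listed at chr1:149829618-149961290, on the same chromosome and near Ptgs2, and differed from it widely in level.

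The 2 terminal synthases of the list were low. Hpgds (ENSMUSG00000029919, chr6:65117293-65144908, minus strand), the haematopoietic synthase of prostaglandin D, had 0.31, 0.21 and 0.19 FPKM in control libraries and 0.22, 0.30 and 0.18 FPKM in metformin libraries. Ptges (ENSMUSG00000050737, chr2:30889471-30929863, minus strand), the inducible synthase of prostaglandin E, had 0.17, 0.28 and 0.09 FPKM in control libraries and 0.20, 0.16 and 0.17 FPKM in metformin libraries. Both genes overlapped between the groups, with exact permutation p = 0.9 for Hpgds and 1 for Ptges. Only 9 to 15 fragments of Hpgds and 5 to 15 of Ptges stood behind each library, so that counting error alone was wide for both genes. Gm17147, on the strand opposite to Hpgds, was at 0.168 FPKM, and Gm13400, on the strand of Ptges, was listed at 0.

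Some other genes that carry the same or neighbouring reactions were higher. Of 9 further synthase genes, 4 reached 1 FPKM (Ptges3, Akr1b3, Ptges2 and Ptgis) and 5 did not. Ptges3, whose product is the cytosolic prostaglandin E synthase and also the co-chaperone p23, was the highest of 9 further synthase genes, at 113.84, 115.52 and 120.58 FPKM in control and 121.96, 121.72 and 121.11 FPKM in metformin libraries. All 3 metformin libraries lay above the controls, by a margin of under 1 FPKM between the nearest libraries. The log2 difference was 0.06 (95% interval 0.00 to 0.12), with an unadjusted p of 0.0497 and an adjusted p of 0.460 in limma, so that the difference of the means of 4.24% did not pass the test. Ptges3 exceeded Ptges by 413-fold to 1340-fold, and the membrane-bound Ptges2, at 6.94 ± 0.351 and 6.78 ± 0.459 FPKM, exceeded it by 25.1-fold to 72.8-fold. The aldose reductase gene Akr1b3, whose product also makes prostaglandin F, was at 19.2 ± 0.534 and 19.3 ± 0.10 FPKM (adjusted p = 0.965). The synthases of thromboxane (Tbxas1, mean 0.09 FPKM) and of lipocalin-type prostaglandin D (Ptgds, 0.0517 FPKM) were near the low end with Hpgds.

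The leukotriene branch began with the widest contrast of the list. Alox5ap (ENSMUSG00000060063, chr5:149264767-149288153, plus strand) encodes FLAP, the membrane protein that presents arachidonic acid to 5-lipoxygenase. Its level was 67.77, 69.46 and 70.86 FPKM in control libraries and 70.05, 72.87 and 70.92 FPKM in metformin libraries, above 92.7% of the tested genes. The groups overlapped, and means of 69.4 ± 1.55 and 71.3 ± 1.44 FPKM gave a log2 difference of 0.04 (95% interval -0.02 to 0.10, limma adjusted p = 0.631, exact permutation p = 0.2). A pair of genes on the opposite strand overlaps it, n-R5s180 at 0.347 FPKM and an unnamed gene at 0.182 FPKM.

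Alox5 itself (ENSMUSG00000025701, chr6:116410077-116461178, minus strand), the lipoxygenase that FLAP serves, was listed at 0, 0.04 and 0.02 FPKM in control libraries and at 0.02, 0.03 and 0.02 FPKM in metformin libraries. These values stand for 0 to 2 fragments a library, and all 6 were at or under the level of 3 fragments (0.0521 to 0.0545 FPKM), so that Alox5 was not told from 0 in either group and no fold between the groups is given. Measured against that floor in each library, Alox5ap was at least 1244-fold higher than Alox5. Of the other lipoxygenases, Alox15 had the highest mean over the 6 libraries at 0.075 FPKM, with 0.12 FPKM in its highest library, and 2 of these 6 genes were listed at 0 in all libraries. FLAP message was abundant in libraries where no lipoxygenase message of the list reached 1 FPKM.

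**Figure D2:**
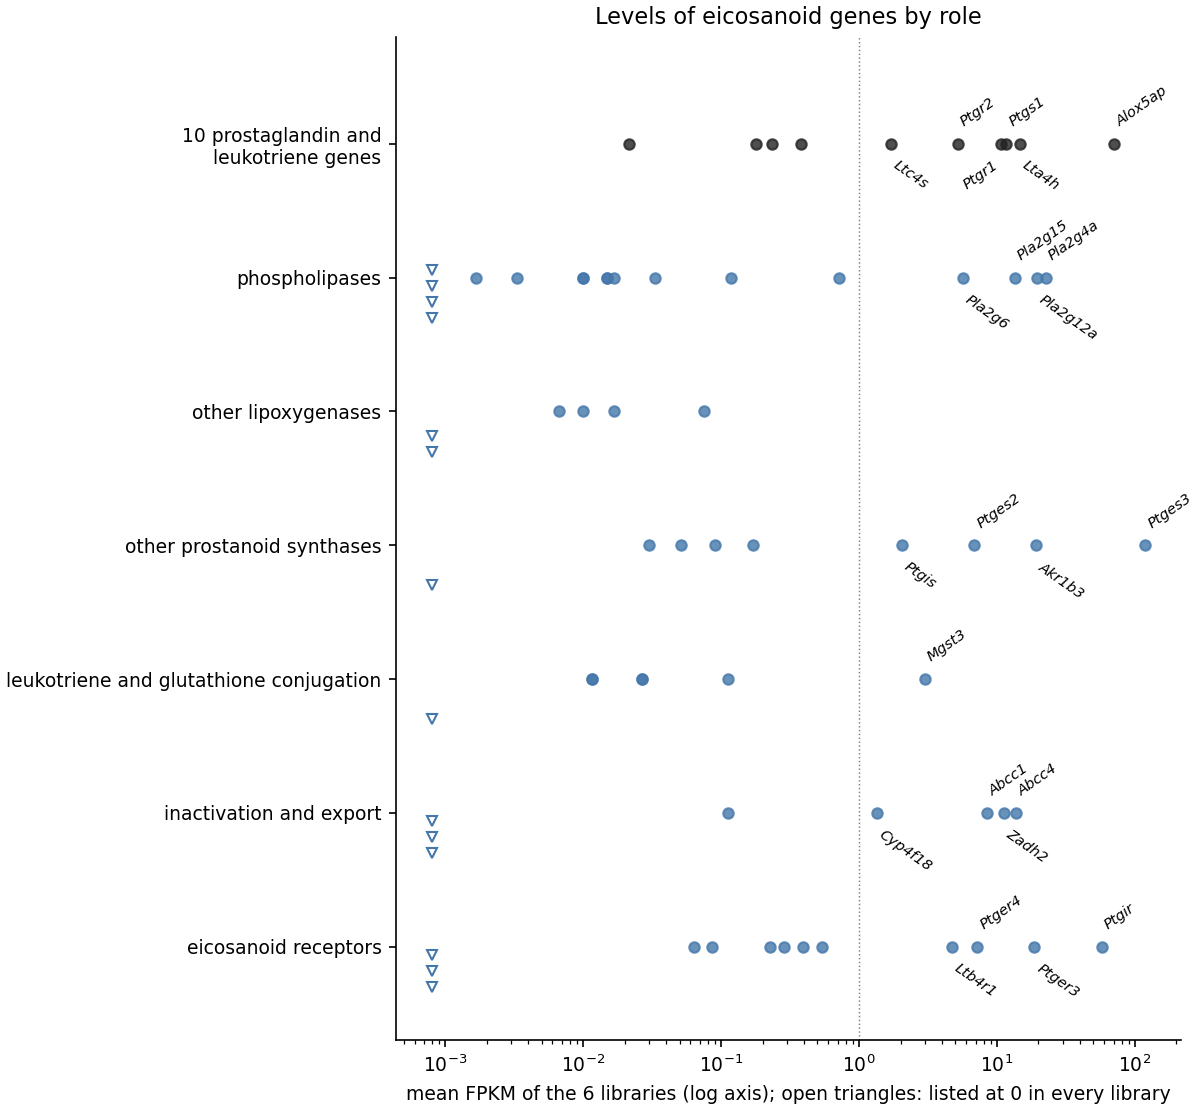
Mean FPKM of the 6 libraries (log axis) for the 10 genes (black) and 61 other eicosanoid genes (blue) by role, with open triangles for genes listed at 0 in every library and the dotted line at 1 FPKM. Genes at or above 1 FPKM are named, and the row of other lipoxygenases has none.

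Lta4h (ENSMUSG00000015889, chr10:93453411-93484875, plus strand) encodes the hydrolase that makes leukotriene B from leukotriene A and that is also an aminopeptidase. It had 14.34, 15.89 and 14.29 FPKM in control libraries and 14.96, 14.13 and 15.10 FPKM in metformin libraries. The highest value was control library 2, and the groups overlapped. Means were 14.8 ± 0.910 and 14.7 ± 0.524 FPKM, with a log2 difference of -0.01 (95% interval -0.12 to 0.11, limma adjusted p = 0.968, exact permutation p = 0.8). Without control library 2 the difference was 0.04, and without metformin library 2 it was 0.02.

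Ltc4s (ENSMUSG00000020377, chr11:50236461-50238616, minus strand) encodes the membrane enzyme that joins glutathione to leukotriene A, the first step to the cysteinyl leukotrienes. Control libraries had 1.69, 1.79 and 2.40 FPKM and metformin libraries 1.12, 1.62 and 1.57 FPKM. Each metformin library lay below each control library, and metformin library 1 and control library 3 were farthest apart. Means were 1.96 ± 0.384 and 1.44 ± 0.275 FPKM, a difference of -26.7%, the largest among the 6 tested genes. The log2 difference was -0.28 (SE 0.13, 95% interval -0.57 to 0.01), with an unadjusted p of 0.0597 and an adjusted p of 0.476 in limma and an exact permutation p of 0.1, so that the difference did not pass the test. It was -0.42 with a pseudocount of 0.1, and -0.18 both without control library 3 and without metformin library 1.

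Only 12 to 25 fragments of Ltc4s were counted per library by the estimate from its exon length, with a counting SD of 24.1% for a single library. Groups lay apart with metformin lower in 8.10% of all tested genes. A longer unnamed gene on the opposite strand spans most of Ltc4s at 0.49 to 1.01 FPKM, and whether reads were assigned by strand is not given in the sources used here, so that reads of the 2 genes may not be told apart. The summed level of the 11 mast cell markers was 484 to 499 FPKM in metformin and 506 to 538 FPKM in control FGSCs, and the gap lay in Cpa3, at 338 ± 9.40 against 366 ± 16.9 FPKM, which did not pass the test (limma adjusted p = 0.369). Kit, at 118 FPKM in both groups, and Il1rl1, at 33.0 ± 1.33 FPKM in metformin and 32.6 ± 0.774 FPKM in control FGSCs, had no lower mean in metformin FGSCs. The part of these markers in the values of Ltc4s and Pla2g4a was not tested, and in bulk cultures fewer cells of a type and less RNA per cell cannot be told apart.

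Within each library, Lta4h exceeded Ltc4s by 5.95-fold to 13.4-fold. This ratio was 7.77 ± 1.59 in control FGSCs and 10.6 ± 2.46 in metformin FGSCs (SD, n = 3 each), with ranges that overlapped. Alox5ap exceeded Ltc4s by 40.1-fold, 38.8-fold and 29.5-fold in control libraries 1 to 3 and by 62.5-fold, 45.0-fold and 45.2-fold in metformin libraries 1 to 3. These ranges did not overlap, as those of Ltc4s itself did not, and no test was made of the ratio. Alox5ap exceeded Lta4h by 4.37-fold to 5.16-fold over the 6 libraries. The related conjugating enzyme gene Mgst3 was at 3.36 ± 0.736 FPKM in control and 2.66 ± 0.335 FPKM in metformin FGSCs (log2 difference -0.24, limma adjusted p = 0.542), with overlapping groups, and its difference was -0.13 without control library 3 and -0.38 without control library 2. It was the only one of 7 further genes of leukotriene and glutathione conjugation to reach 1 FPKM, and Dpep1, a dipeptidase that trims leukotrienes, was listed at 0.

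**Figure D3:**
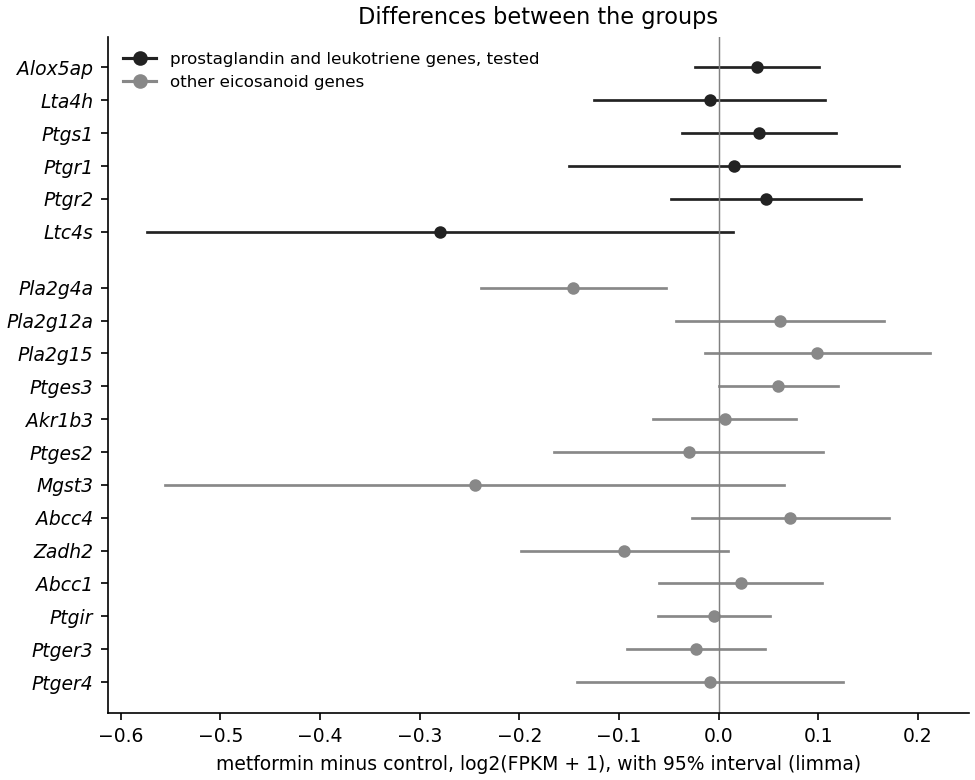
Difference of metformin minus control in log2(FPKM + 1) with its 95% interval from limma for the 6 tested genes of the list (black) and 13 other eicosanoid genes (grey), chosen as the highest of each role. Among the 6, each interval includes 0, and those of Ltc4s and Mgst3 are the widest shown.

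Of 8 genes of inactivation and export, 4 reached 1 FPKM (Zadh2, Abcc1, Abcc4 and Cyp4f18, a cytochrome at a mean of 1.34 FPKM). Hpgd, whose product makes the keto prostaglandins that Ptgr1 and Ptgr2 act on, was listed at 0 in all 6 libraries, as were the prostaglandin carrier Slco2a1 and the epoxide hydrolase Ephx2. Zadh2, which encodes another prostaglandin reductase, was at 11.7 ± 0.629 FPKM in control and 10.8 ± 0.216 FPKM in metformin FGSCs (log2 difference -0.09, limma adjusted p = 0.494), and its difference was -0.06 without control library 2 and -0.13 without control library 1. Zadh2 exceeded Ptgr2 by 2.19-fold, 2.36-fold and 2.31-fold in control libraries 1 to 3 and by 2.11-fold, 2.03-fold and 2.00-fold in metformin libraries 1 to 3. This ratio was lower in each metformin library than in each control library, and it was picked for description after its values were seen, with no test. The exporters Abcc4 (13.4 ± 0.481 to 14.1 ± 0.577 FPKM, adjusted p = 0.572) and Abcc1 (8.39 ± 0.0379 to 8.54 ± 0.183 FPKM, adjusted p = 0.858) did not pass the limma test.

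Among 13 receptor genes, the prostacyclin receptor Ptgir was the highest, at 57.5 ± 1.21 FPKM in control and 57.3 ± 0.295 FPKM in metformin FGSCs (log2 difference -0.0046, limma adjusted p = 0.967). The prostaglandin E receptors Ptger3 (18.8 ± 0.153 and 18.5 ± 0.420 FPKM, adjusted p = 0.818) and Ptger4 (7.23 ± 0.532 and 7.17 ± 0.295 FPKM, adjusted p = 0.975) followed. Ptger2, Ptgdr and Ptgfr were listed at 0 in all libraries. The cysteinyl leukotriene receptors Cysltr1 and Cysltr2 had means of 0.39 and 0.543 FPKM, and the fourth receptor gene above 1 FPKM was Ltb4r1, which encodes a receptor of leukotriene B. Ltb4r1 had the largest difference of the 4, with overlapping groups at 4.43 ± 0.699 FPKM in control and 5.04 ± 0.282 FPKM in metformin FGSCs (log2 difference 0.16, limma adjusted p = 0.576).

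Counted together, 17 of the 61 other eicosanoid genes passed the minimum, and of the 44 that did not, 14 were listed at 0 in every library. None of the 17 was called at an adjusted p under 0.05, and at an unadjusted p under 0.05 there was 1 higher (Ptges3) and 1 lower (Pla2g4a), which were also the only 2 of them with groups that did not overlap. Over all tested genes 10.8% had such a p, and groups lay apart in 8.89% with metformin higher and in 8.10% with metformin lower, so that 2 of 17 is near or under the general share. The log2 differences of the 17 had a median of -0.0046, with 8 above and 9 below 0, and those of the 6 tested genes of the list had a median of 0.03, with 4 above and 2 below 0. Over all 10661 tested genes the median was 0.0041. In absolute size the median difference was 0.04 for the 6 genes, 0.06 for the 17 others and 0.05 for all tested genes.

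**Figure D4:**
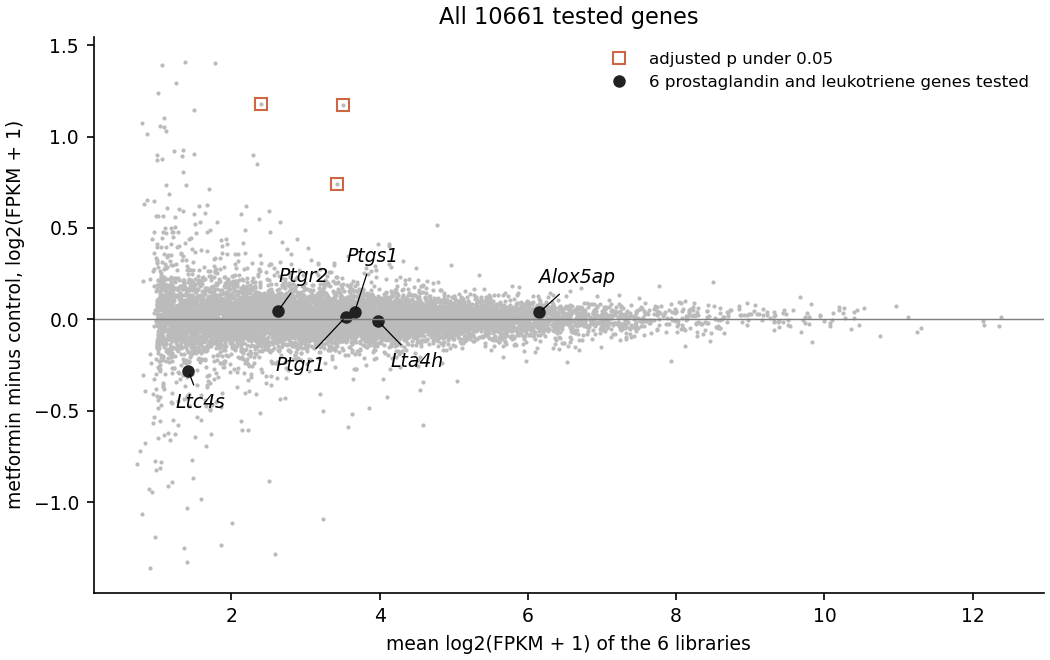
Difference of metformin minus control against the mean level, both in log2(FPKM + 1), for 10661 tested genes (grey), with the 6 tested genes of the list in black and the 3 genes called at an adjusted p under 0.05 (limma) as open squares. The 3 called genes lie above 0 and are none of the 6, of which Ltc4s, the lowest in level, lies farthest from 0.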

How the data were processed

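RNA-seq libraries of 3 control and 3 metformin FGSC samples were analysed. The labels name the KAPA Stranded mRNA-Seq kit for these libraries whereas the methods of the study name a VAHTS kit. The submitters' processing notes name HISAT2, DESeq2 and mm9, with no versions given in the sources used here. The authors deposited FPKM values rounded to 2 decimals for 55401 Ensembl genes, and gene positions in that table are those of GRCm38. No per-sample column was left unused (0 columns).

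The 10661 genes whose mean reached 1 FPKM were tested as log2(FPKM + 1) with limma 3.58.1 in R 4.3.3 (lmFit, eBayes with a trend, two-sided, Benjamini-Hochberg over all tested genes, threshold 0.05, no block). Single genes were also given an exact two-sided permutation test. The fit was tested on simulated data in which 200 genes were changed by a log2 difference of 0.25, 0.5 or 1. It recovered 49%, 86.5% and 99% of them, with 7, 10 and 17 false calls, and made 0 false calls with no gene changed. These shares are averages over tested genes picked at random. They do not give the recovery for a single gene with a wide spread such as Ltc4s, which was not tested. Depth was estimated from the FPKM steps of single-exon genes under 400 bp (340 to 372 values per library, 100% within 0.1 of a whole multiple), and fragments per gene from exon lengths of GENCODE M1. Fragment counts, floors of 3 fragments and counting SDs cover counting error only. Promoter windows came from RefSeq (GRCm38.p6), with Python 3.11.15 for the search.

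The 10 genes, the pathway lists and the marker lists were chosen with earlier results of these data known. Besides the 10, the 3 highest genes of each pathway list among those reaching 1 FPKM, the highest marker of each marker list, markers listed at 0 in all libraries and genes overlapping one of the 10 were named. Others were named after their values were seen. One platelet marker is not reported here. Fam213b, Ptgdr2 and Adgre1 were matched through RefSeq synonyms. Alternatives were a pseudocount of 0.1, no filter, a mean of at least 10 FPKM, rescaling to the same sum, quantile normalization, median centring, no trend, a replicate block and leaving out each library.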

Additional observations from a re-analysis of the deposited data

How the results depend on the processing

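Under every alternative run, 0 of the 10 genes and 0 of the other eicosanoid genes were called. Ptgs2, Hpgds, Ptges and Alox5 and the 44 other eicosanoid genes under the minimum were tested with no filter only. Genes listed at 0 in all libraries were tested in no run. Of all tested genes 3 were called in the fit reported, 7 with no filter on low values, and 2 to 4 under each of the others. With a mean of at least 10 FPKM, Ptgr2 and Ltc4s have no value. The labels do not say whether replicate numbers pair the samples. Correlations of same-numbered deviations were -0.0317, 0.0181 and 0.0479, which does not settle whether cultures were paired. With the replicate block, adjusted p in limma was 0.757 for Ptgr2 and 0.486 for Ltc4s and 2 genes were called in all. Ptges had a difference of 0.0372 with a pseudocount of 0.1 and of 0.0055 after rescaling, against -0.0011 as reported, and the cause was not tested. With 1 library left out in turn, the log2 difference ran from -0.0610 to 0.0835 for Ptgr1, -0.0338 to 0.0380 for Lta4h, -0.0423 to 0.0384 for Hpgds, -0.0568 to 0.0591 for Ptges, -0.0093 to 0.0190 for Alox5, -0.0073 to 0.0279 for Akr1b3, -0.0178 to 0.0116 for Ptgir and -0.0408 to 0.0439 for Ptger4, all across 0. The values of Alox5 rest on 0 to 2 fragments per library and are no measured difference. Ptgr2 (0.04 to 0.06), Ptgs1 (0.02 to 0.05), Alox5ap (0.02 to 0.05) and Ltc4s (-0.34 to -0.18) kept their sign. Of 304 alternative values of single genes, 287 kept their direction, and their call where the gene was tested, and 17 reversed. No filter, a mean of at least 10 FPKM, no trend and the replicate block leave the difference itself unchanged. Values from these settings are among the 304 and could not reverse, and none of these genes was called in the fit reported. Depth limits Ltc4s, Ptgs2, Hpgds, Ptges and Alox5, at 41 fragments or fewer per library.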
